A study of Mus musculus with 3 samples.

Results

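The genes of MHC class II presentation were followed across the cell types of mouse dorsal skin, using 3 droplet-based 3′ single-cell RNA-seq libraries, 1 per condition. Of the 32285 genes in the count tables, 7 were taken by name: the class II chains H2-Aa, H2-Ab1 and H2-Eb1, the H2-DM chains H2-DMa and H2-DMb1, the invariant chain Cd74 and the transactivator Ciita. All 7 were present in the tables. The mice were labelled female C57BL/6J, 8 weeks old. The study gives that age where it describes the purchased mice, and gives no age at sampling. CON was control skin. UV was skin irradiated on alternate days over 12 weeks, with a UVA intensity of 0.6 mW/cm2 combined with 3.5 mW/cm2 of UVB. Rux had the same exposure and topical 1.5% ruxolitinib, an inhibitor of the kinases JAK1 and JAK2. As the study describes its groups, CON and UV received the ointment vehicle without drug, and skin was taken a day after the last exposure. With 1 library per condition there was no replicate and no test, so every interval given here covers counting error only, at 95%. How many mice a library pooled is not given in the sources used here, so animal, library and condition cannot be told apart.

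The 3 libraries kept 10777, 10231 and 9299 cells in CON, UV and Rux, with medians of 7540, 7639 and 9430 UMIs (unique molecular identifiers, 1 per captured transcript). The content of all 3 libraries went against the labelled sex: the Y-linked gene Ddx3y stood at 111, 115 and 121 CPM (the standard scale for depth, in ppm of all UMIs of the cells summed), while Xist, made from the inactive X chromosome in female cells, had 13, 14 and 13 UMIs in all. Of the cell barcodes, 50 were shared by CON and UV, 28 by CON and Rux and 40 by UV and Rux. Clusters were named from marker genes that include no class II gene, and the class II genes were left out of the clustering, so that their levels did not choose the classes. The 30307 cells fell in 26 named classes, apart from 4074 cells in 9 clusters left unnamed. Averaged over the 3 libraries, all markers of each class stood above their level over all cells, except in the mixed epithelial class, where 9 of 10 did. The same markers gave the names, so this is no separate check of them.

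MHC class II molecules are pairs of an alpha and a beta chain that carry peptides from ingested proteins to the cell surface, where CD4+ T cells read them. H2-Aa and H2-Ab1 encode the chains of I-A, and H2-Eb1 the beta chain of I-E. Cd74 holds newly made chains together and keeps the peptide groove closed, and H2-DMa with H2-DMb1 forms the H2-DM molecule that exchanges the last fragment of Cd74 for a peptide. Ciita is the switch for all of them: it binds no DNA itself, but assembles on the factors that sit on the X and Y boxes of class II promoters. Dendritic cells, macrophages and B cells make class II constitutively, whereas epithelial and endothelial cells can make it under interferon-gamma, through the kinases JAK1 and JAK2 and the factor IRF1.

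The 5 H2 genes lie within the MHC on chromosome 17 of GRCm38, the build of the count tables (mm10), and are protein-coding: H2-DMa at 34119541 to 34139101, H2-DMb1 at 34153072 to 34160230, H2-Ab1 at 34257689 to 34269419, H2-Aa at 34282744 to 34287823 and H2-Eb1 at 34305867 to 34316674. H2-Aa is on the minus strand and the others are on the plus strand. Ciita lies on chromosome 16, from 10480059 to 10528418 on the plus strand. No position is given for Cd74. Upstream sequence is shown for an alpha and a beta chain, because their levels are followed together below, and because both hold the letters of the paired elements through which Ciita is known to act. Both stretches are from RefSeq (GRCm38.p6), 5′ to 3′ on the strand of the gene, and end before its start. Capitals mark letters of an X2-box core (TGATGAT or TGACGTC) and of the Y box (TGATTGG). In H2-Aa the X2 letters were matched on both strands, in overlap.
H2-Aa, chr17:34287842-34287922, minus strand: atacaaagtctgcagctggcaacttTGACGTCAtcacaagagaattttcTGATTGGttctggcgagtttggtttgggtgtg
H2-Eb1, chr17:34305756-34305837, plus strand: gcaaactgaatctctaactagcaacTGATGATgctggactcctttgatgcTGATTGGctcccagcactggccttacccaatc
In the 250 bases upstream of the RefSeq start, the Y-box letters began at position -50 in H2-Aa and -61 in H2-Eb1, and the X2 letters at -74 and -86. H2-DMb1 held both as well, at -63 and -89. Neither of the 2 entries of H2-DMa held either motif. Searched on both strands, the Y-box letters were in 7.23% of 32851 promoters of that length, the X2 letters in 5.80%, and both in 0.447%. These are matches of letters, not measured binding.

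Dendritic cells and macrophages carried most of the class II RNA. In cDC2-like cells (Cd209a, Mgl2, Ccl17; 40, 32 and 43 cells in CON, UV and Rux) the 7 genes together made up 45485, 39884 and 52187 CPM. A small cluster of CCR7DC-like cells (Ccr7, Fscn1, Ccl22; 8, 10 and 12 cells) stood at 36503, 28391 and 28323 CPM, and MAC-like cells (C1qa, C1qb, Mrc1; 159, 115 and 151 cells) at 19943, 19393 and 19763 CPM. MONO-like cells (Ly6c2, Ccr2, Chil3; 61, 56 and 178 cells) came next, at 5022, 12328 and 6968 CPM. All take up and present antigen, and the order of these 4 classes was the same in every library. Immune cells were 5.99%, 6.58% and 13.4% of the cells kept, and held 85.3%, 86.3% and 93.3% of the class II UMIs. These shares move with how many immune cells were captured.

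**Figure D1:**
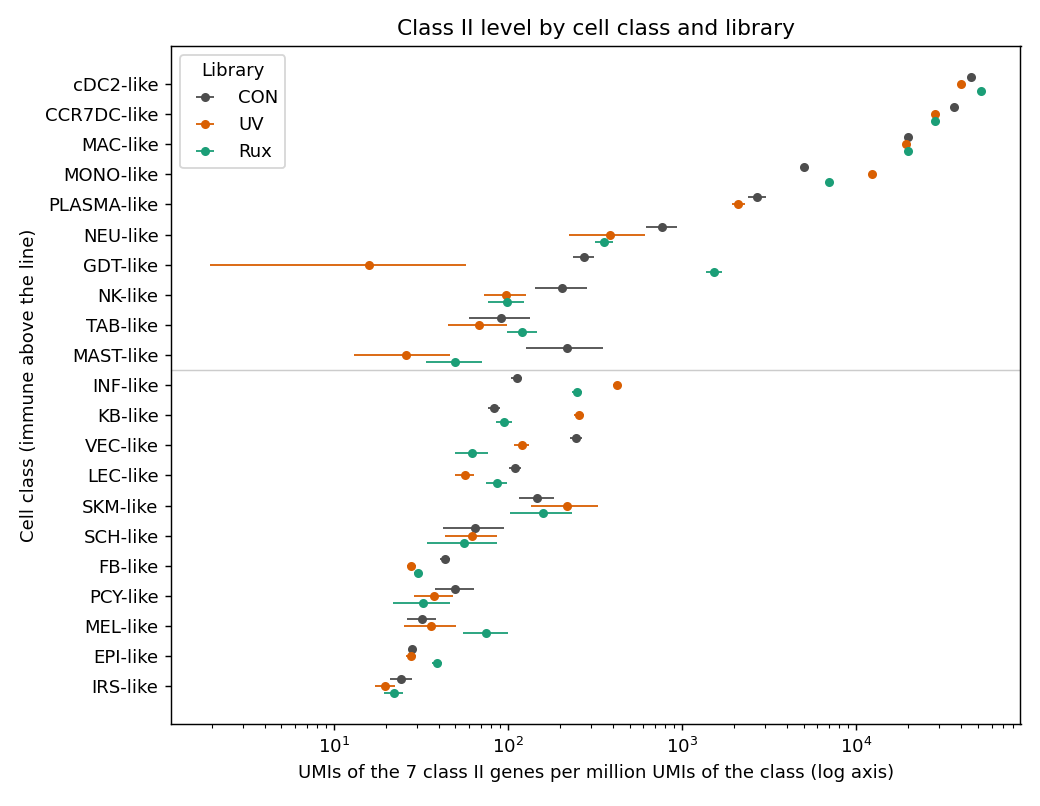
CPM of the 7 class II genes together in each cell class (x axis, log scale) for the CON, UV and Rux libraries; points are library values and bars exact Poisson 95% intervals, and classes with few cells in a library (ILC2, KS, MP, SG and RBC, and PLASMA in Rux) are not drawn. Dendritic and macrophage classes lie highest in every library, with MAC-like cells at 19943, 19393 and 19763, INF-like cells at 112, 421 and 249, and FB-like cells at 43.6, 27.9 and 30.5.

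In cDC2-like cells Cd74 was the most abundant member, at 17855, 14605 and 18840 CPM in CON, UV and Rux. The 3 chains followed, in an order that was not the same in every library, with H2-Ab1 at 10041, 8714 and 10734 CPM, H2-Aa at 8197, 7862 and 10903 CPM, and H2-Eb1 at 7971, 7444 and 10173 CPM. The peptide-loading chains were far lower, with H2-DMa at 657, 637 and 827 CPM and H2-DMb1 at 628, 526 and 637 CPM. Ciita, a regulator, was the lowest, at 135, 96.9 and 73.8 CPM, from 55, 35 and 39 UMIs. Each UMI stands for 1 transcript end whatever the length of the transcript, so no length scale was applied.

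In cDC2-like and MAC-like cells the libraries were close to each other. In cDC2-like cells no member passed 2-fold in either direction, where 6.47% of 7432 genes were higher and 11.6% lower in UV over CON, and 6.18% of 7002 genes were higher and 11.0% lower in Rux over UV. The class II sum there gave log2 ratios of -0.19 (interval -0.22 to -0.16) and 0.39 (0.36 to 0.42). In MAC-like cells the same ratios were -0.04 (-0.07 to -0.01) and 0.03 (-0.0042 to 0.06). Again no member passed 2-fold, where 4.77% of 7652 genes were higher and 6.85% lower in UV over CON, and 3.4% of 7417 genes were higher and 6.13% lower in Rux over UV. The MAC-like value pooled 2 clusters of unlike level. A cluster led by Retnla, Lyz1 and C1qb stood at 26782, 23151 and 20241 CPM in CON, UV and Rux, and one led by Ccl8, Retnla and Pf4 at 14590, 11333 and 16869.7 CPM. The first made up 59 of 159 cells in CON, 73 of 115 in UV and 128 of 151 in Rux. The MAC-like level in Rux depended on which cells took the name: with up to 20% mitochondrial UMIs allowed, the ratio of Rux over UV was -1.06, and without doublet removal it was -0.63.

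MONO-like cells had the highest class II level in UV. Cd74 stood at 2235 CPM in CON, 4912 in UV and 2646 in Rux. H2-Aa was at 850, 2625 and 1532 CPM, H2-Ab1 at 979, 2347 and 1410 CPM, and H2-Eb1 at 655, 1834 and 1058 CPM. For all 7 members UV was the highest of the 3 libraries, but Ciita, at 25.1, 40.4 and 5.92 CPM from only 12, 17 and 10 UMIs, did not differ between UV and CON beyond counting error. In UV over CON, 5 of 7 members were higher by at least 2-fold, where 6.56% of 6966 genes were; their median log2 ratio was 1.26 against -0.06 over those genes. The sum gave 1.30 (1.23 to 1.37). In Rux over UV it gave -0.82 (-0.87 to -0.78), and Ciita alone among the members was lower by 2-fold or more, where 7.24% of 6780 genes were. Cells with 10 or more class II UMIs were 18 of 61 in CON, 43 of 56 in UV and 90 of 178 in Rux. The 5 cells with the most class II UMIs held 55.5%, 30.4% and 19.2% of these UMIs, and the intervals do not cover such unevenness. The macrophage gene C1qb moved within the same cells, from 8.37 CPM in CON to 99.8 in UV and 349 in Rux. Without the cells that held a C1qa, C1qb or C1qc UMI (2, 13 and 50 cells), the sum stood at 5219, 9317 and 5144 CPM, and UV then stood above CON by 0.84 on the log2 scale, under 2-fold.

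In the named classes outside the immune cells, levels were far below those of dendritic cells, macrophages and monocytes. They were not below every immune class, since T cells had low levels too, as given below. A background was set first, from fibroblasts and muscle cells, chosen for the comparison. FB-like (fibroblast) cells had 43.6, 27.9 and 30.5 CPM of class II UMIs in CON, UV and Rux. Thinned to 2000 UMIs each, 8.15%, 6.07% and 5.80% of them had a class II UMI, and 9.32%, 7.69% and 0% of MP-like (myogenic progenitor) cells did, the last being 0 of 16 cells, which allows a share of up to 20.6%. SKM-like (skeletal muscle) cells, with 65, 18 and 23 cells deep enough, gave 7.69%, 27.8% (9.69 to 53.5) and 4.35%. Median depths were 6038, 7242.5 and 9762 UMIs in FB-like, 3339, 3173 and 4579 in MP-like and 1684, 2427 and 1999 in SKM-like cells. Without thinning, 23.2%, 18.3% and 25.7% of FB-like cells had a class II UMI. For each UMI of 10 general immune genes (among them Ptprc, Tyrobp, Lyz2 and C1qa), FB-like cells had 1.86, 1.97 and 1.49 class II UMIs. Over all immune cells of the same libraries this ratio was 1.34, 1.28 and 0.921. The FB-like level is read as background here, but it was itself highest in CON. Whether fibroblasts made part of it was not tested. MP-like cells stood at 48.9, 24.7 and 38.4 CPM. SKM-like cells stood above that, at 147, 218 and 158 CPM from 75, 22 and 25 UMIs. Without the top cell of each library they stood at 61.6, 189 and 57.9 CPM, still high in UV. The 10 general immune genes summed to 64.9, 277 and 754 CPM in them. They were left out of the background only after these values were seen.

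Infundibular keratinocytes stood above the FB-like and MP-like background in UV. INF-like cells, which line the upper hair follicle (Krt79, Cst6, Defb6), formed 1 cluster of 503, 231 and 191 cells in CON, UV and Rux. Cd74 in them stood at 35.5 CPM in CON (31.1 to 40.3), 205 in UV (192 to 219.9) and 108 in Rux (97.7 to 119). H2-Eb1 was at 21.5, 73.6 and 51.7 CPM, H2-Ab1 at 23.0, 62.5 and 41.7 CPM and H2-Aa at 17.2, 52.2 and 28.5 CPM. For Cd74 and the 3 chains, UV was highest, CON lowest and Rux between, and the intervals of UV did not touch those of CON. H2-DMb1 was at 6.18, 12.7 and 11.3 CPM and H2-DMa at 8.25, 12.7 and 6.59 CPM. Ciita had 4, 9 and 5 UMIs, too few to order the libraries.

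In UV over CON, 4 of the 5 members with a mean of at least 10 CPM were higher by at least 2-fold in INF-like cells, where 2.29% of 8301 genes were. Their median log2 ratio was 1.60, against -0.02 over all those genes. Cd74 gave 2.53 (2.33 to 2.75), H2-Eb1 1.77 (1.48 to 2.07), H2-Aa 1.60 (1.27 to 1.94) and H2-Ab1 1.44 (1.15 to 1.74). In Rux over UV the 5 members at that level held H2-DMb1 in place of H2-DMa. None of them passed 2-fold lower, where 1.58% of 8226 genes did. Cd74 gave -0.93 (-1.10 to -0.76) and the 3 chains lay between -0.51 and -0.87. Against CON, Rux was still higher for Cd74, at 1.60 (1.37 to 1.84), and for H2-Eb1, at 1.26 (0.95 to 1.58). H2-Ab1 and H2-Aa were also higher in Rux than in CON, by under 2-fold.

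**Figure D2:**
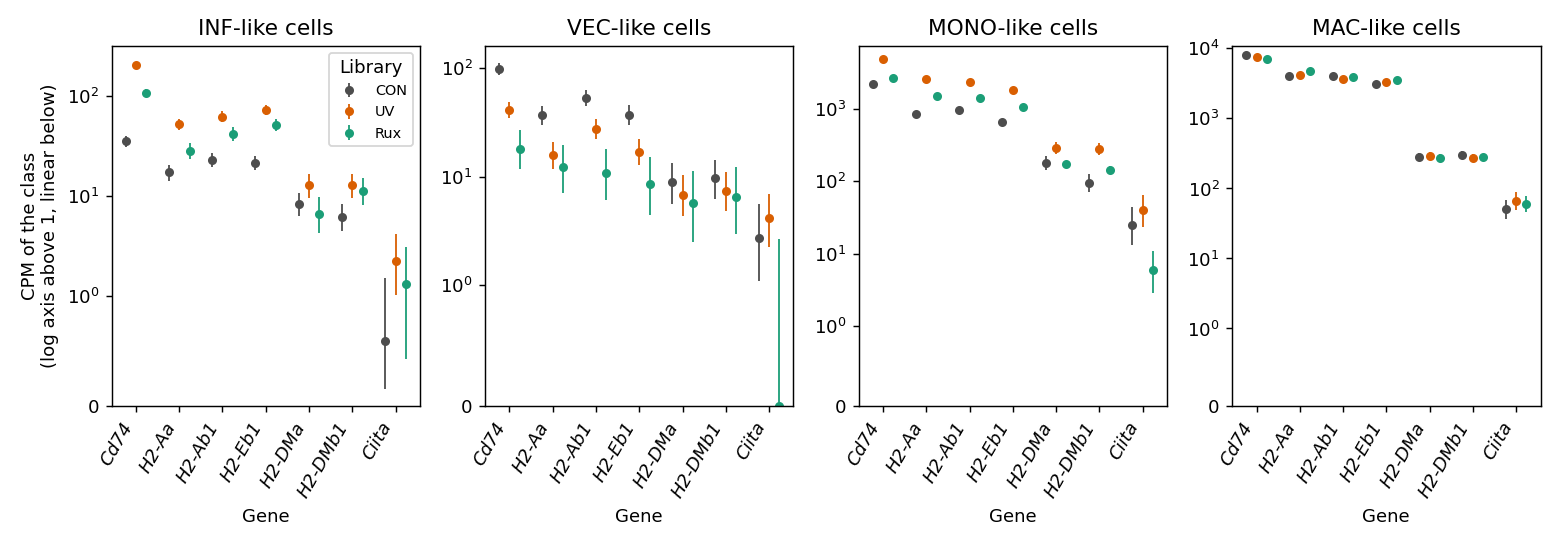
CPM of the 7 members (y axis, log above 1 and linear below) in INF-like, VEC-like, MONO-like and MAC-like cells of CON, UV and Rux; points are library values and bars exact Poisson 95% intervals. In INF-like cells Cd74 runs 35.5, 205 and 108, in VEC-like cells 97.7, 41.0 and 17.997, and the MAC-like points of each gene lie close together.

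The signal in UV lay in more of the INF-like cells than in CON, though unevenly. The 5 cells with the most class II UMIs held 53.0%, 28.3% and 33.6% of these UMIs in CON, UV and Rux. Cells with 10 or more class II UMIs were 5 of 503 in CON (0.994%, 0.324 to 2.30, Clopper-Pearson), 48 of 231 in UV (20.8%, 15.7 to 26.6) and 21 of 191 in Rux (11.0%, 6.94 to 16.3). All 3 chains were seen together in 8, 44 and 22 cells. Median depth was 10651, 12910 and 16587 UMIs. With every cell thinned to 2000 UMIs, 12.5% (9.70 to 15.7) had a class II UMI in CON, 34.1% (27.9 to 40.6) in UV and 21.2% (15.5 to 27.8) in Rux, and without thinning 45.1%, 60.2% and 61.3%. The thinned share in CON lay above that of FB-like cells, but close to it. The thinned share in UV lay within the wide interval of the SKM-like cells of UV. In CON a single cell held 303 of the 762 class II UMIs. Without the top cell of each library the levels were 68.5, 373 and 226 CPM, so the UV over CON ratio then came to 2.44 on the log2 scale.

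**Figure D3:**
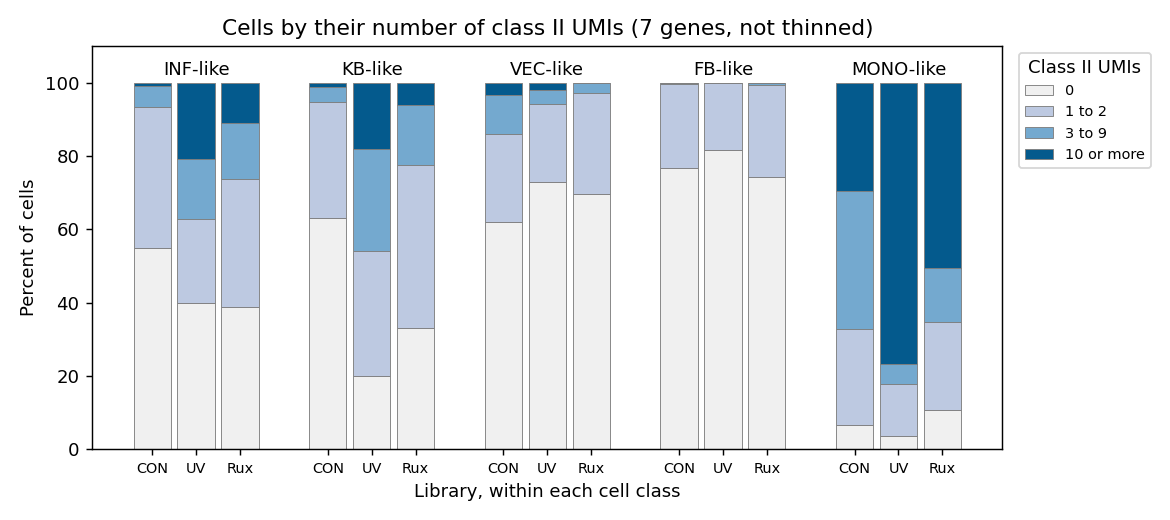
Percent of cells (y axis) with 0, 1 to 2, 3 to 9 or 10 or more UMIs of the 7 class II genes, without thinning, in 5 cell classes and 3 libraries. The darkest part, 10 or more UMIs, is 0.994%, 20.8% and 11.0% of INF-like cells in CON, UV and Rux, and is near 0 in FB-like cells.

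Markers of immune cells did not follow the class II genes in INF-like cells. Of the 10 general immune genes, 64 UMIs in all were seen in the 231 UV cells, among them 5 of Ptprc, 2 of Tyrobp and 4 of C1qa, beside 1719 class II UMIs. That is 26.9 class II UMIs per immune UMI, against 1.28 over all immune cells of that library. In Rux the ratio was 11.9 against 0.921, and in CON 4.92 against 1.34. The immune pool mixes classes of unlike ratio. In CON, UV and Rux it was 6.02, 6.21 and 6.79 in cDC2-like cells and 12.3, 10.6 and 9.81 in CCR7DC-like cells. INF-like cells lay below both of these classes in CON and above both in UV and Rux. No cluster took the name of Langerhans cells or B cells, though both had marker lists, so their ratios were not compared. Plasma cells had 8.47, 10.4 and 50, the last from 1 immune UMI. Of the 86 UV cells with at least 3 class II UMIs, 80 held no UMI of Ptprc, Tyrobp, Fcer1g or Cd207, the last a marker of Langerhans cells. Without every INF-like cell that held any of these 4 genes, the class II level was 70.1, 404 and 257 CPM. Cells with at least 3 class II UMIs were deeper than those with none, at medians of 22190 against 9221.5 UMIs in CON, 15662 against 11594 in UV and 22347 against 14421.5 in Rux. Doublet removal did bear on the size: with predicted doublets kept, the log2 ratio of UV over CON was 0.95, under 2-fold, and that of Rux over UV was -0.085.

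One cluster of basal keratinocytes had the same order of libraries. KB-like cells (Krt14, Krt5, Col17a1) pooled 2 clusters, and the pooled class II level of 83.4, 255 and 94.6 CPM mixed them in different proportions. The pooled log2 ratio of UV over CON depended on the processing, and ran from 0.083 to 2.32 over the alternatives run. This range is of the pooled class, not of either cluster. In the cluster led by Cstdc5, Stfa3 and Fcgbp, with 71, 76 and 55 cells, the class II sum was 78.4 CPM in CON, 299 in UV and 129 in Rux, and Cd74 was 26.9, 124 and 39.5 CPM. In the cluster led by Clca3a2, with 471, 24 and 78 cells, the sum was 84.4, 56.7 and 47.4 CPM, but a single CON cell held 269 class II UMIs. Without the top cell of each library, this cluster stood at 42.7, 50.8 and 41.6 CPM, and the cluster led by Cstdc5 at 69.997, 264 and 101 CPM. In the cluster led by Cstdc5, the 5 cells with the most class II UMIs held 47.1%, 44.6% and 47.8% of these UMIs. A cluster left unnamed, led by Gm44284, Defb8, Krt77, Lce1m, Defb6 and Lor, among them genes of keratinocytes, had 437, 504 and 345 CPM from only 168, 30 and 18 class II UMIs, with Ptprc, the pan-leukocyte gene, at 20.8, 83.9 and 38.3 CPM. In INF-like cells Ptprc was at 1.62, 1.23 and 2.90 CPM. Among other epithelial classes, EPI-like cells had 28.3, 27.8 and 39.0 CPM and IRS-like (inner root sheath) cells 24.3, 19.7 and 22.0 CPM. KS-like (suprabasal keratinocyte) cells had 65.6, 59.9 and 29.99 CPM from 255, 19 and 38 cells. SG-like (sebaceous gland) cells had 30.7, 105 and 88.4 CPM from 59, 123 and 4 class II UMIs, in 46, 23 and 1 cells.

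The make-up of the class II RNA was described by the shares of its members. Among UMIs of the 3 chains, H2-Eb1 was the largest part in UV, at 39.1% in INF-like and 48.0% in KB-like cells. In cDC2-like, MAC-like and MONO-like cells of UV it was 31.0%, 29.5% and 26.9%, and in CCR7DC-like cells 37.1%, 36.2% and 32.6% in CON, UV and Rux. Cd74 made up 36.5% (32.8 to 40.3) of the UMIs of Cd74 and the 3 chains in INF-like cells of CON, 52.2% (49.7 to 54.6) in UV and 47.0% (43.6 to 50.3) in Rux. In CON a single INF-like cell held 303 of the 762 class II UMIs. The CON share thus rests largely on few cells, and the intervals do not cover such unevenness. In MAC-like cells these shares were 41.9%, 40.7% and 37.1%. PLASMA-like cells, 8, 11 and 1 in number, had Cd74 at 1909, 1916 and 1752 CPM with few chains, so that Cd74 was 71.9%, 90.9% and 80.0% of these UMIs.

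**Figure D4:**
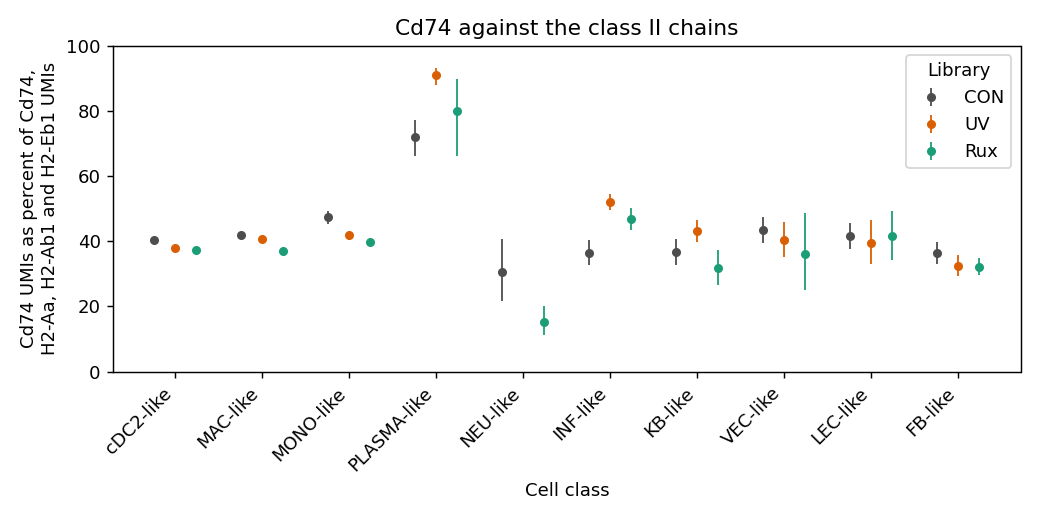
Cd74 UMIs as a percent of the UMIs of Cd74, H2-Aa, H2-Ab1 and H2-Eb1 (y axis) by cell class in CON, UV and Rux, with exact binomial 95% intervals; NEU-like cells of UV had too few UMIs to draw. PLASMA-like cells lie highest, and INF-like cells run 36.5%, 52.2% and 47.0%.

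Blood vessels went the other way. In VEC-like cells (Pecam1, Cdh5, Plvap; 404, 474 and 181 cells) Cd74 stood at 97.7 CPM in CON (86.0 to 110.5), 41.0 in UV (34.4 to 48.4) and 17.997 in Rux (11.6 to 26.6). H2-Ab1 was at 53.3, 27.6 and 10.8 CPM, H2-Aa at 36.7, 15.7 and 12.2 CPM and H2-Eb1 at 37.1, 16.9 and 8.64 CPM. CON was the highest and Rux the lowest for each of these 4 genes, but H2-Aa did not differ between UV and Rux beyond counting error. In UV over CON, 3 of the 4 members with a mean of at least 10 CPM were lower by at least 2-fold, where 1.78% of 8364 genes were. The sum gave -1.04 (-1.22 to -0.86), near the 2-fold mark itself. In Rux over UV, 2 of 4 were lower by 2-fold or more, where 2.71% of 8204 genes were, and the sum gave -0.95 (-1.30 to -0.61). Ciita had only 7, 14 and 0 UMIs, and was highest in UV. The Rux sum rested on 86 UMIs, and with clustering at a resolution of 0.8 its ratio to UV was -0.18.

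The vessel signal in CON also exceeded the FB-like and MP-like background. An unnamed cluster outside that background, led by Col11a1, Lrrc15 and Adamts18, was likewise highest in CON, as given at the end. A class II UMI was seen in 21.3% (17.2 to 25.8) of thinned VEC-like cells in CON, 12.8% (9.81 to 16.4) in UV and 10.8% (6.39 to 16.7) in Rux, and in 38.1%, 27.0% and 30.4% without thinning, at median depths of 5364.5, 5812 and 6385 UMIs. There were 4.55, 6.30 and 3.07 class II UMIs per UMI of the general immune genes, beside 6.02, 6.21 and 6.79 in cDC2-like cells. Those genes summed to 54.0, 19.0 and 20.2 CPM, highest in CON as the class II genes were, and their part in the result was not tested. Without cells that held Ptprc, Tyrobp, Fcer1g or Cd207, the level was 235, 118 and 62.2 CPM. Both vascular clusters showed the order. The one led by Iglc2, Fabp4 and Adgrl4 had 278, 133 and 65.7 CPM, and the one led by the venular genes Selp and Sele had 215, 79.6 and 55.7 CPM. A cluster left unnamed that shared Fabp4, Gpihbp1 and Cdh5 with them but was led by the pericyte gene Rgs5 (80, 181 and 63 cells) had 78.9, 39.7 and 105 CPM, so that it was lower in UV than in CON but highest in Rux. In LEC-like (lymphatic endothelial) cells the sum was 109.6, 56.5 and 86.2 CPM, lowest in UV. FB-like cells, at background, also had their highest level in CON, UV standing at -0.64 (-0.77 to -0.52) against it on the log2 scale.

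Genes around class II were described from lists of the pathway. Interferon-gamma itself was seen in lymphocytes. Ifng stood at 133, 165 and 106 CPM in TAB-like (alpha-beta T) cells and at 70.2, 298 and 393 CPM in NK-like (natural killer) cells of CON, UV and Rux, and at 0 UMIs in INF-like cells. In INF-like cells, 2 of 7 measured interferon-gamma targets were higher by 2-fold or more in UV over CON, where 2.29% of 8301 genes were: Cxcl10 (60.7 to 137 CPM), a chemokine for T cells, and Gbp2 (15.8 to 39.0 CPM), a defence GTPase. The median of the 7 was 0.13, beside 1.60 for the class II members. In Rux over UV, Gbp2 alone of the 7 was lower by 2-fold or more, at 14.2 CPM in Rux, where 1.58% of 8226 genes were, and the median was -0.25. Of 7 measured genes of the interferon-gamma axis, from receptor to Irf1, none passed 2-fold in UV over CON and 1 was lower in Rux over UV: Irf1, a transcription factor upstream of Ciita, at 203, 275 and 80.4 CPM in CON, UV and Rux. Of the lysosomal processing genes there, Lgmn, an endopeptidase, was at 23.3, 58.8 and 26.1 CPM, and the other 6 measured stayed within 2-fold in both contrasts. None of the 6 measured partners of Ciita at class II promoters, such as Rfx5 and Nfyb, passed 2-fold in either contrast.

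In VEC-like cells most targets and the class II genes were below 0 in UV over CON, by unlike amounts. All 15 targets were measured. Of these 13 were below 0 in UV over CON, none of them by 2-fold, and the median log2 ratio was -0.26, while the median of the 4 members was -1.17. Igtp, a GTPase of the same defence system as Gbp2, was at 83.0, 44.0 and 10.8 CPM in CON, UV and Rux, and Gbp2 at 206, 145 and 60.5 CPM. In Rux over UV, 12 of 15 were lower by 2-fold or more, where 2.71% of 8204 genes were, with a median of -1.80 beside -0.03 over all genes and -1.04 for the members. The 2 targets above 0 in UV over CON were the chemokines Cxcl9, at 129, 192 and 5.76 CPM in CON, UV and Rux, and Cxcl10, at 269, 307 and 16.6 CPM. Irf1, of the axis list, was at 693, 712 and 323 CPM. In MONO-like cells, 6 of 8 measured targets were lower by 2-fold or more in Rux over UV, where 7.24% of 6780 genes were, with a median of -1.46, and 0 of 9 were higher by 2-fold in UV over CON, where 6.56% of 6966 genes were, with a median of 0.09.

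**Figure D5:**
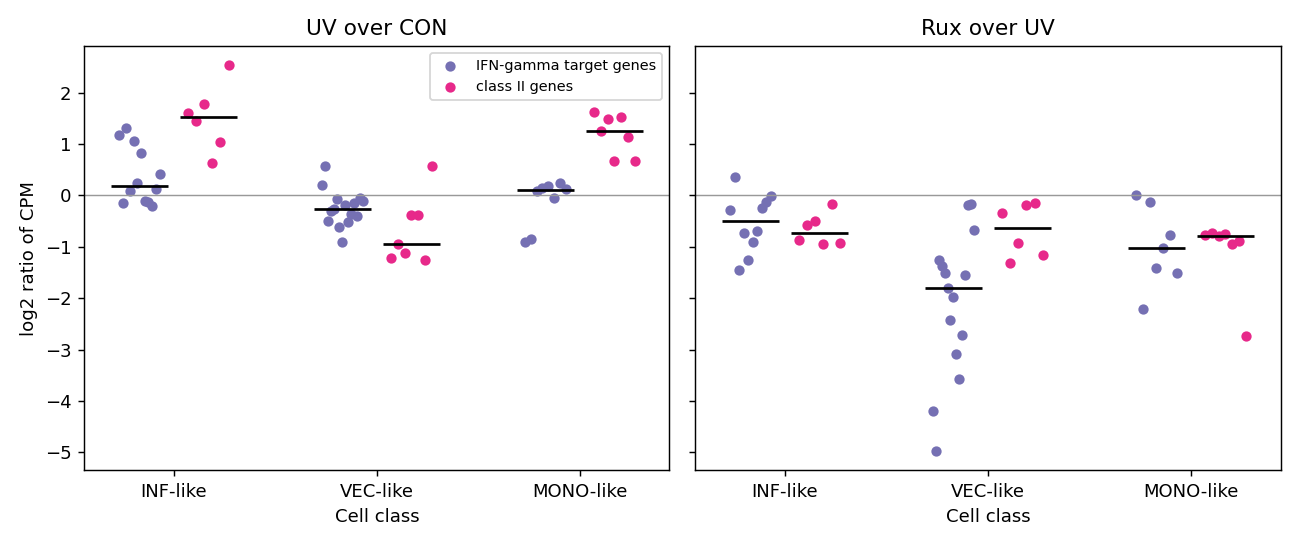
log2 ratio of CPM (y axis) for interferon-gamma target genes and class II genes with at least 20 UMIs in the 2 libraries, in INF-like, VEC-like and MONO-like cells, for UV over CON (left) and Rux over UV (right); each point is a gene and black lines are medians of the points. In UV over CON the class II genes lie mostly above 0 in INF-like and MONO-like cells and mostly below 0 in VEC-like cells, and in Rux over UV the VEC-like targets reach down to -4.97.

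Other class II machinery was measured in cDC2-like cells. Of the other chains, H2-DMb2 stood at 108, 88.6 and 47.3 CPM, H2-Oa at 49.2, 58.1 and 53.0 CPM and H2-Ob at 61.5, 41.5 and 62.4 CPM. H2-Oa and H2-Ob form the molecule that restrains H2-DM. In the INF-like, VEC-like, MONO-like and MAC-like classes no gene of that list reached a mean of 10 CPM in these contrasts. The counts over lists that follow stand beside 6.47% of 7432 genes higher and 11.6% lower by 2-fold or more in UV over CON. Of 2 measured genes of surface turnover 1 was lower by 2-fold or more in UV over CON. This was the ubiquitin ligase March1, which removes class II from the cell surface and stood at 93.5 CPM in CON and 33.2 in UV in cDC2-like cells. Of 6 measured costimulatory genes 1 was higher by 2-fold or more in UV over CON, Pdcd1lg2 (39.4 to 105 CPM), and 1 was lower, Cd40 (204 to 96.9 CPM). Of 8 myeloid and dendritic factors Irf8 alone was higher by 2-fold or more (27.1 to 122 CPM, 11 and 44 UMIs). Among the lysosomal processing genes Ctsd alone was higher by 2-fold or more in UV over CON (34.5 to 74.7 CPM, 14 and 27 UMIs), and none was lower. From the interferon-gamma axis and target lists, Irf1 (123 to 33.2 CPM), Cxcl10 (197 to 63.7 CPM) and Gbp5 (41.8 to 13.8 CPM) were lower by 2-fold or more. Gbp5 rested on 17 and 5 UMIs. The other genes of these lists with at least 20 UMIs stayed within 2-fold, Psmb8, Psmb9, Tap1 and Nlrc5 among them standing above 0. Of the class II receptors on T cells, Cd4 and Lag3, neither reached 10 CPM there in that contrast.

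Lymphocytes and granulocytes had low levels. TAB-like cells had 91.2, 68.1 and 121 CPM of class II UMIs and NK-like cells 205, 97.6 and 98.3 CPM. NEU-like (neutrophil) cells, 50, 22 and 227 in number, had 764, 384 and 356 CPM from 98, 17 and 271 UMIs. Cd74 in them stood at 234, 45.2 and 53.8 CPM, the UV value from only a few of those 17 UMIs. In GDT-like (gamma-delta T) cells the sum was 273, 16.0 and 1534 CPM, but without the top cell of each library it was 137, 8.30 and 93.3 CPM, so that the Rux value rested mostly on 1 cell. Over the 50 combinations of class and library with at least 50 cells, which leave out the cDC2-like cells, the members followed each other. Pearson's r of log2(CPM + 1) was highest between H2-Ab1 and H2-Eb1, at 0.972, and lowest between H2-DMa and H2-Aa, at 0.760. Of 15302 genes compared, 15 were taken as most like the members: Nxpe5, Clec4b1, Ly86, Msr1, Aif1, Gm48065, Gm20513, Gm6377, Gm48061, Gm49662, Tfec, F13a1, Ptpro, Fcgr1 and C3ar1, in falling order of r from 0.941 to 0.906. All 15 were highest in a MAC-like or MONO-like unit. These units share libraries and depth, so r is a description only.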

How the data were processed

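The authors dissociated dorsal skin, made 10x Genomics 3′ v3.1 libraries and counted UMIs with Cell Ranger on mm10, and deposited raw counts per gene and cell, not normalized. The file headers give Cell Ranger 7.0.0, the submitters' processing notes 6.1.2. The 3 tables held 13170, 12411 and 11287 cells with 165337289, 133972374 and 131570327 UMIs (CON, UV, Rux). Cells were kept from 200 genes upward and up to 10% mitochondrial UMIs. The highest Scrublet scores (scanpy 1.11.5) were then removed, 1269, 1128 and 923 cells. Seurat 5.3.0 in R 4.3.3 clustered all cells together (LogNormalize, 2000 variable genes, 30 components, resolution 1.5, no batch correction), then the 2569 immune cells (20 components, resolution 1.0).

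A cluster took a lineage name where at least 3 markers were each seen in at least 10% of cells and the mean marker score led the next lineage by 1 log2 unit. It stayed unnamed where its 10 top genes held more markers of another lineage, or where it was shallow with none of its own. Names can therefore differ from those of the study. UMIs were summed per class and library and given as CPM with exact Poisson intervals. Ratios had 0.5 UMI added and intervals from the exact binomial of the 2 counts. The share of cells used cells thinned to 2000 UMIs. PCR and free RNA add errors that these intervals do not cover. In each class, 2-fold counts were made over genes whose mean reached 10 CPM. Lists covered other class II chains, lysosomal processing, partners of Ciita, the interferon-gamma axis and its targets, myeloid and dendritic factors, surface turnover, costimulation, class II receptors on T cells and immune RNA in other cells. Genes named were the 7 members, list genes with at least 20 UMIs in the libraries compared, the 15 genes most alike in profile, and genes that identify a cluster, library or background. The members and lists were chosen with earlier results of these data known. On simulated counts with 200 genes changed 2-fold, 100% had the right sign in INF-like cells (8306 genes, UV over CON), 95.5% in MONO-like cells (7149 genes) and 93.5% in cDC2-like cells (7441 genes), the lowest of the classes tested. The counts were independent Poisson draws at the class totals, the counting model of the intervals, so good recovery was built in. Unevenness between cells and differences between mice were left out of them. Alternatives were other filters, resolutions, scalings and weights. Numpy 2.4.6, scipy 1.17.1, pandas 2.3.3 and matplotlib 3.10.9 were used under Python 3.11.15. One gene of the lists is not reported here.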

Additional observations from a re-analysis of the deposited data

Results flagged for a closer look

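The class II sum differed in direction between cell classes under the same contrast. In UV over CON the log2 ratio was 1.91 in INF-like cells and -1.04 in VEC-like cells, a gap of 2.95. Between MONO-like (1.30) and VEC-like cells the gap was 2.33. Each class has 1 library per condition, and neither difference was tested. The general immune genes summed to 22.8, 15.7 and 20.8 CPM in INF-like cells and 54.0, 19.0 and 20.2 CPM in VEC-like cells of CON, UV and Rux, and their part in the class II values was not tested.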

How the results depend on the processing

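The alternatives were run for INF-like, VEC-like, MONO-like, KB-like, LEC-like, MAC-like, cDC2-like and FB-like cells. In these classes no ratio of the class II sum past 2-fold changed sign. Other classes, such as NK-like, SG-like and GDT-like cells, were not put through the full set. An unchanged sign does not mean a stable size: in pooled KB-like cells the lowest value for UV against CON was 0.083. Log2 ratios of UV over CON ran from 0.95 to 2.53 in INF-like cells, from -1.20 to -0.86 in VEC-like cells and from 0.84 to 1.48 in MONO-like cells. Of 74 values over the 6 main ratios, 52 stayed within the counting interval and 22 moved outside it, and the cause was not tested. With a stricter filter (500 genes, 5% mitochondrial UMIs), INF-like UV over CON was 1.70 and MONO-like Rux over UV -0.48. Without doublet removal, INF-like UV over CON was 0.95 and Rux over UV -0.085, VEC-like Rux over UV -1.42 and MONO-like Rux over UV -0.37. At a resolution of 0.8, INF-like UV over CON was 1.78, VEC-like Rux over UV -0.18 and MONO-like Rux over UV -0.74. For MONO-like UV over CON and Rux over UV, an immune resolution of 0.5 gave 1.17 and -0.74, class II genes allowed in clustering 1.18 and -0.73, and median-of-ratios scaling 1.38 and -0.74. With equal weight per cell, INF-like UV over CON was 2.33 and Rux over UV -0.89, and VEC-like Rux over UV -0.51. The other 3 alternatives were chosen after seeing the data. Without cells holding an immune marker UMI, INF-like UV over CON was 2.53. Without C1q-bearing cells, MONO-like UV over CON was 0.84. Without the top cell of each library, INF-like UV over CON was 2.44 and MONO-like 1.48.

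Under the stricter filter and at an immune resolution of 0.5 no cDC2-like cluster was named, so those settings give no value for it. No paired analysis was possible because each condition has 1 library. Depth limits Ciita most, with under 20 UMIs in each library in INF-like, VEC-like and MONO-like cells. In MONO-like cells its log2 ratio was 0.67 (-0.47 to 1.88) in UV over CON and -2.74 (-4.06 to -1.56) in Rux over UV. MAC-like ratios of Rux over UV ran from -1.06 to 0.21.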

Other observations

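A cluster left unnamed, led by Lingo2, Adgrb3 and Dcc (245, 262 and 90 cells in CON, UV and Rux), held H2-Ab1 with little of its partner chain H2-Aa. H2-Ab1 stood at 29.6, 49.3 and 43.7 CPM, and H2-Aa at 2.77, 6.09 and 8.40 CPM. H2-Ab1 was 81.2%, 83.5% and 75.4% of the UMIs of the 3 chains, against 38.3%, 36.3% and 33.7% in cDC2-like cells. H2-DMb1 was at 18.8, 16.5 and 17.6 CPM in it, and Cd74 at 5.17, 10.0 and 10.9 CPM. Without thinning, H2-Ab1 was seen in 37.1%, 35.5% and 35.6% of these cells, shares that depend on depth. The cluster was singled out after its values were seen.

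A cluster led by Foxp3 and Ctla4, genes of regulatory T cells (12, 21 and 30 cells), held Cd74 at 122, 138 and 223 CPM with H2-Aa at 0, 8.62 and 27.9 CPM. An unnamed cluster led by Mmp13, Arg1 and Spp1, with 0, 16 and 64 cells, had a class II sum of 14037 CPM in UV and 2974 CPM in Rux. An unnamed cluster led by Col11a1, Lrrc15 and Adamts18 (121, 193 and 377 cells) had class II sums of 199, 37.2 and 40.9 CPM. These clusters were also singled out after their values were seen.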
